A study of Homo sapiens with 6 samples.

Results

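Cell-surface and secreted glycoproteins are built by glycosyltransferases of the Golgi, and the 90 genes examined here encode the families that start, branch, extend and cap mucin-type O-glycans and the outer chains of N-glycans and glycolipids. They were taken by gene name, as the protein-coding rows of the expression table named as members of the GALNT, FUT, ST3GAL, ST6GAL and ST6GALNAC, ST8SIA, B3GNT, B3GALT, B4GALT, B4GALNT, GCNT and MGAT families, with C1GALT1 and C1GALT1C1. The table holds 58735 genes, of which 19951 are protein-coding, and 7 rows with matching names but other biotypes were left out. The rule itself uses names and no expression value, but it was set with earlier results of these data known.

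The cells were NCI-N87, an established gastric cancer cell line. One group carried the lentiviral control vector (shNC, genotype Control in the labels) and the other a lentiviral shRNA against SCAMP1 (shScamp1, SCAMP1 Knockdown), and SCAMP1 is a membrane protein of secretory and endocytic vesicles. Both groups were exposed to virus and polybrene for 24 h and selected as stable populations with puromycin at 2 μg/ml. They were harvested near confluence, and 3 libraries per group, labelled as biological replicates, were sequenced. The paper names its RNA-seq among the assays not covered by its statement of 3 independent repeats. The sources do not say whether the replicates came from separate infections, so p-values measure the spread between these libraries, which may be partly technical. A single shRNA was sequenced in a single line, and an effect of this shRNA other than through SCAMP1 cannot be told apart from one of SCAMP1 loss.

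Expression was deposited as FPKM, in which fragment numbers are divided by the length of the gene and the size of the library, so levels can be compared between genes per length. SCAMP1 (ENSG00000085365, chr5:78360583-78479071) was measured at 12.6, 12.1 and 11.5 FPKM in shNC and at 1.70, 1.37 and 1.99 FPKM in shScamp1. The targeted transcript fell by 2.78 on the log2 scale (SE 0.14, limma adjusted p = 2.48e-04), and the smallest p that an exact two-sided permutation test can give with 3 against 3 libraries is 0.1, which SCAMP1 reached. Libraries held 15064905 to 15988700 reads on genes in shNC and 14311769 to 14667628 in shScamp1. Replicate 2 of shScamp1 stood apart with 9.21% mitochondrial reads, against 6.09% to 6.78% in the other libraries. All 7 epithelial and gastric line markers were detected, with a summed level of 5443 to 5723 FPKM in shNC and of 9075 to 10028 FPKM in shScamp1, and most of the difference lay in KRT8, KRT18 and KRT19 (log2 fold changes 0.97, 1.19 and 0.75). CDH1 was higher too (0.45, limma adjusted p = 0.0311), while ERBB2 (0.16), EPCAM (-0.05, means of 153 and 148 FPKM) and CDX2 (-0.22, 22.6 and 19.4 FPKM) were not called (limma adjusted p = 0.336, 0.670 and 0.0965), although CDX2 was lower without replicate 2 of shScamp1 (0.0338). The fibroblast list summed to 0.533 to 0.689 and 0.487 to 0.773 FPKM, with 1 of 6 markers at 0.5 FPKM or more and 3 at 0 reads. The leukocyte list summed to 1.76 to 2.02 and 1.48 to 2.85 FPKM, with 1 of 6 markers, LYZ, at that level, and PTPRC, its defining marker, with at most 4 reads per library. LYZ was not called (limma adjusted p = 0.478) but was higher without replicate 2 of shScamp1 (0.00807). The endothelial list summed to 0.139 to 0.235 and 0.381 to 0.612 FPKM, with 0 of 4 at that level.

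Mucin-type O-glycosylation starts when a GALNT enzyme attaches GalNAc to serine or threonine, and C1GALT1, with its chaperone C1GALT1C1, adds galactose to form core 1. Branching enzymes (GCNT genes for O-glycans and I-branches, MGAT genes for N-glycans) open further arms, which B3GNT, B3GALT and B4GALT enzymes extend with GlcNAc and galactose. Fucosyltransferases and sialyltransferases cap the ends, which gives blood group, Lewis and sialyl Lewis antigens such as CA19-9 in gastrointestinal epithelium.

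The upstream sequences of 4 genes that were higher in shScamp1 are shown first. They are the 4 with the largest log2 fold change among higher genes whose window holds at most 28 exonic bases of the files' annotation (3 to 28 in those shown). RefSeq (GRCh38.p14) gave a start for 64 of the 90 genes, and the 250 bases before the first listed start were read. Capitals mark the GC box, GGGCGG or its reverse complement CCGCCC, searched on both strands. B4GALT1 lies on the reverse strand (chr9:33167337-33167586), FUT3 on the reverse strand (chr19:5851450-5851699), B3GNT3 on the forward strand (chr19:17794888-17795137) and GALNT10 on the forward strand (chr5:154190483-154190732), each written 5′ to 3′ along its gene. The RefSeq start of B3GNT3 lies 310 bases inside the gene's span in the files, so its window is upstream of that start and not of the gene as annotated there.
B4GALT1: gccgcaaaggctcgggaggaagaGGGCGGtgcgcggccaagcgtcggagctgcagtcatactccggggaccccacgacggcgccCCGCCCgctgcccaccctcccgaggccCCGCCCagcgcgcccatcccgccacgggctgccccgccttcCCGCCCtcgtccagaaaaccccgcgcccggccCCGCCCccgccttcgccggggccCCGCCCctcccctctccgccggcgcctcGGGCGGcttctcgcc
FUT3: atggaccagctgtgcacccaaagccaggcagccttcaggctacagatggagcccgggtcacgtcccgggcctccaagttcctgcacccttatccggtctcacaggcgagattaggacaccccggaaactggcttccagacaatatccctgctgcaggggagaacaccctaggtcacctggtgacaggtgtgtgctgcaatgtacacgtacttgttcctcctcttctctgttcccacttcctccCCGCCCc
B3GNT3: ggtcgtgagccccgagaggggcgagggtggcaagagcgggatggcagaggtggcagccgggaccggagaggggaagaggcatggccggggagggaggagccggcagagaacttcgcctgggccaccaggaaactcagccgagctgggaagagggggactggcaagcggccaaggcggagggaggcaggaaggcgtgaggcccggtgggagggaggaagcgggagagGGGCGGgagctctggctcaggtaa
GALNT10: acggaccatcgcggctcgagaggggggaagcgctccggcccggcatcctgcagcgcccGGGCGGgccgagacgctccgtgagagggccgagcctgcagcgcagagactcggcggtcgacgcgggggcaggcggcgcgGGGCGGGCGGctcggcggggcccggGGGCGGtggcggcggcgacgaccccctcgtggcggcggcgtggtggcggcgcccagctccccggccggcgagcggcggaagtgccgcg

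The B4GALT1 window held 7 GC boxes and 80.0% G and C, the GALNT10 window 4 boxes (of which 2 overlap) and 82.4%, the B3GNT3 window 1 box and 70.4%, and the FUT3 window 1 box and 59.2%. Of the 12 genes with higher expression and a window, 10 held a GC box (GALNT1 and GCNT2 did not), as did 16 of 25 other tested genes with a window and 42.6% of all 35116 windows of this length. The median G and C content was 70.2% for the 12 genes, 65.6% for the 25 and 58.0% for all windows. The TATA box TATAAA was found in 0 of 12, 0 of 25 and 10.7% of all windows, and the E box CACGTG in 1 of 12, 2 of 25 and 6.34%. The AP-1 motif TGANTCA (6.57% of all windows), the interferon response core GAAANNGAA (6.88%), the STAT palindrome TTCNNNGAA (6.57%) and the HNF1 motif GTTAAT (6.23%), all searched on both strands, were in 0 of the 12 and in 2, 3, 2 and 2 of the 25. With 12 windows, counts of 0 are near these background shares. These are matches of letters in 250 bases and describe no binding. No binding data were analysed here.

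Of the 90 genes, 54 averaged 0.5 FPKM or more across libraries and were tested. In shScamp1, 15 of the 54 were higher (27.8%) and 2 were lower (3.70%), at a limma adjusted p under 0.05 over the 15556 genes tested. Over all tested genes, 8.82% were higher and 5.17% were lower. All 54 are protein-coding, and with protein-coding genes alone tested, 13.6% of 11529 genes were higher and 9.16% lower, with the same 15 members higher and 5 lower. The share of higher glycosyltransferase genes thus stood above that of all genes under both settings, and by less under the second. The remaining 37 did not pass. B3GALT5, GALNT5 and GCNT2 had in addition a log2 fold change above 1 (5.56% of the 54 against 2.42% of all genes), while 0 of the 54 fell below -1 (0.746% of all genes), and GCNT2 had a log2 fold change of 0.90 without replicate 2 of shScamp1. That none fell below -1 held also with voom on the recovered reads or at an unadjusted p under 0.05. The FPKM of the groups did not overlap for 31 of the 54 genes (57.4%), against 41.4% of all genes. The median log2 fold change was 0.08 over the 54 and -0.02 over all genes. MGAT4A and ST6GALNAC1 passed the 0.5 FPKM filter only through shScamp1, and MGAT2 only through shNC.

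**Figure D1:**
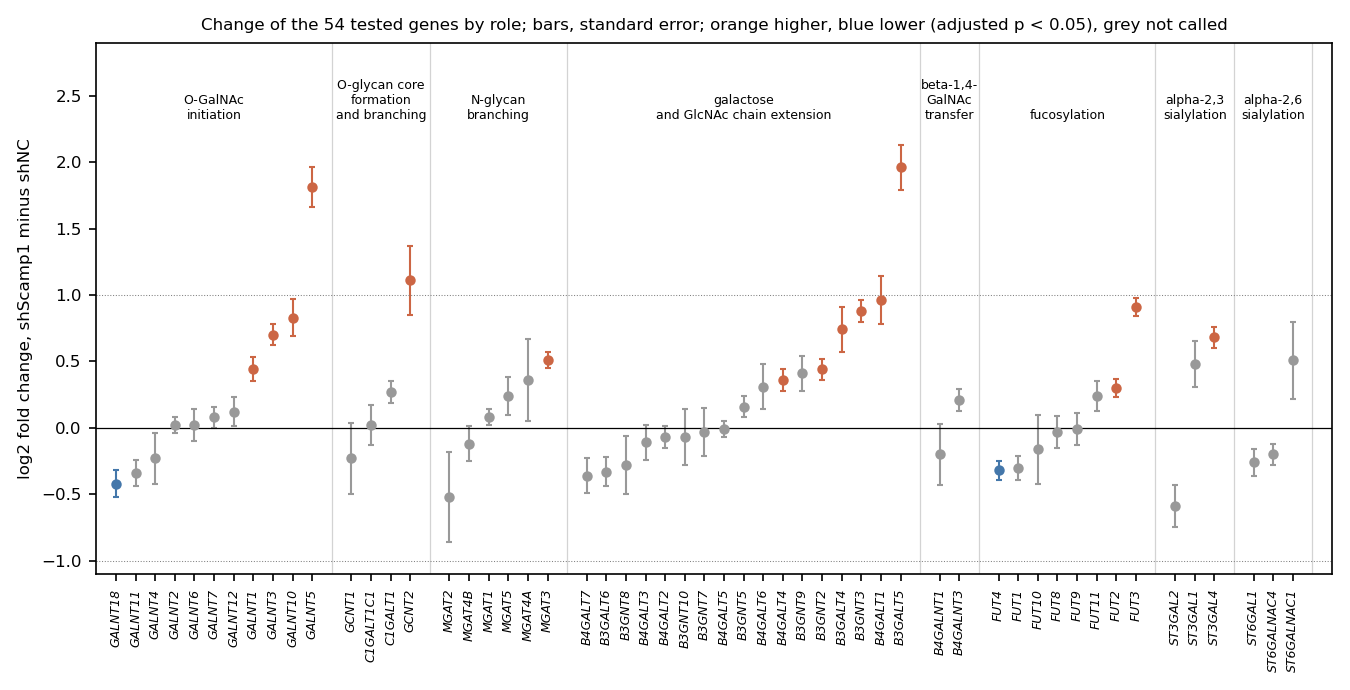
Log2 fold change (vertical axis, shScamp1 minus shNC on log2(FPKM + 0.1)) of the 54 tested genes, grouped by role along the horizontal axis, with bars for the standard error, dotted lines at -1 and 1, and colour for higher (15, orange), lower (2, blue) and not called (37, grey). GALNT5, GCNT2 and B3GALT5 sit above 1, and the 2 lower genes, GALNT18 and FUT4, sit at -0.42 and -0.32.

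The summed FPKM of the 90 genes was 559, 556 and 569 in shNC and 715, 826 and 717 in shScamp1, with means of 562 ± 6.79 and 753 ± 63.3 (SD, n = 3), a ratio of 1.34, and 1.28 without replicate 2 of shScamp1. Their share of reads was 0.293%, 0.293% and 0.294% in shNC and 0.347%, 0.397% and 0.352% in shScamp1. Every shScamp1 library was above every shNC library on both scales. B4GALT1 (mean 123 FPKM over the 6 libraries), B3GNT3 (92.9), MGAT5 (50.9), MGAT4B (34.5) and B4GALT5 (32.9) were the most abundant members. Replicate 2 of shScamp1 was the highest library of its group for 28 of the 54 genes (51.9%, against 41.3% of all genes) and for 10 of the 15 higher ones (66.7%). Without it the same 15 genes were called higher, against 11 and 9 without replicates 1 and 3 of shScamp1 and 8, 7 and 7 without replicates 1, 2 and 3 of shNC.

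In the initiating step, 4 of the 11 tested GALNT genes were higher and 1 was lower. These are 36.4% and 9.09%, against 8.82% and 5.17% of all genes. GALNT5 (ENSG00000136542, chr2:157257598-157314211) was measured at 2.78, 3.48 and 3.10 FPKM in shNC and at 9.71, 13.6 and 10.5 FPKM in shScamp1. All shScamp1 libraries lay far above the control libraries, and the mean went from 3.12 ± 0.347 to 11.3 ± 2.03 FPKM (SD, n = 3), a ratio of 3.61. The log2 fold change was 1.81 (SE 0.15, limma adjusted p = 0.00113), and the call held when any library was left out (largest adjusted p = 0.0111). GALNT3 (ENSG00000115339, chr2:165747591-165794682), the enzyme that glycosylates the hormone FGF23, was at 8.18, 8.27 and 7.42 FPKM in shNC and 12.7, 14.0 and 12.2 FPKM in shScamp1. It rose 1.63-fold (log2 fold change 0.70, SE 0.08, limma adjusted p = 0.00404), and this call too held without any library.

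GALNT10 (ENSG00000164574, chr5:154190730-154420984), which favours peptides that already carry GalNAc, was at 4.54, 4.61 and 4.67 FPKM in shNC and 7.58, 10.2 and 7.26 FPKM in shScamp1. The control libraries were tight and replicate 2 of shScamp1 was the highest, and the log2 fold change of 0.83 (SE 0.14, limma adjusted p = 0.0126) became 0.68 without that library. A stretch of 121 exonic bases (1.15%) is shared with MFAP3 on the same strand. GALNT1 (ENSG00000141429, chr18:35581117-35711834), a broadly expressed initiating enzyme, was at 5.56, 5.01 and 5.48 FPKM in shNC and 6.68, 7.64 and 7.65 FPKM in shScamp1, a log2 fold change of 0.44 (SE 0.09, limma adjusted p = 0.0213). GALNT18 (ENSG00000110328, chr11:11270876-11622005) moved the other way, from 7.60, 7.73 and 8.07 to 6.19, 5.01 and 6.35 FPKM, and fell by 0.42 on the log2 scale (SE 0.10, limma adjusted p = 0.0484). The GALNT10 call was lost without any of the shNC replicates (adjusted p = 0.0583 to 0.0608). The GALNT1 call was lost without any of the shNC replicates (0.0744 to 0.0990) or without replicate 3 of shScamp1 (0.0860), and the GALNT18 call without any library but replicate 2 of shScamp1 (0.0665 to 0.164), without the filter (0.0912), with TPM (0.0524) and without a variance trend (0.0726).

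GALNT2, the most abundant initiating enzyme, was not called. It was at 17, 16.8 and 17.3 FPKM in shNC and 17.6, 16.4 and 17.8 FPKM in shScamp1 (log2 fold change 0.02, SE 0.06, limma adjusted p = 0.867, with a sign that turned with TPM). The other tested members GALNT4, GALNT6, GALNT7, GALNT11 and GALNT12 were not called, with log2 fold changes from -0.34 (GALNT11) to 0.12 (GALNT12). GALNT4 shares 5033 exonic bases (93.2%) with POC1B-GALNT4 on the same strand, which stood at 0.05 FPKM. GALNT12 shares 662 (21.1%) with the antisense gene AL136084.2, which stood at 0.0137 FPKM. GALNT11 was called lower with voom (adjusted p = 0.0415) and with protein-coding genes alone (0.0445), and the sign of GALNT6 turned in some fits without 1 library. The summed FPKM of the family went from 72.1 ± 0.809 to 89.7 ± 4.33 (SD, n = 3), and its make-up differed too. GALNT5 held 4.33% ± 0.530 of the sum in shNC and 12.5% ± 1.63 in shScamp1, GALNT3 went from 11% to 14.5%, GALNT2 from 23.6% to 19.3% and GALNT18 from 10.8% to 6.56%. These shares describe transcripts within the family and add up to a fixed total, so a higher share of 1 gene lowers that of the others.

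**Figure D2:**
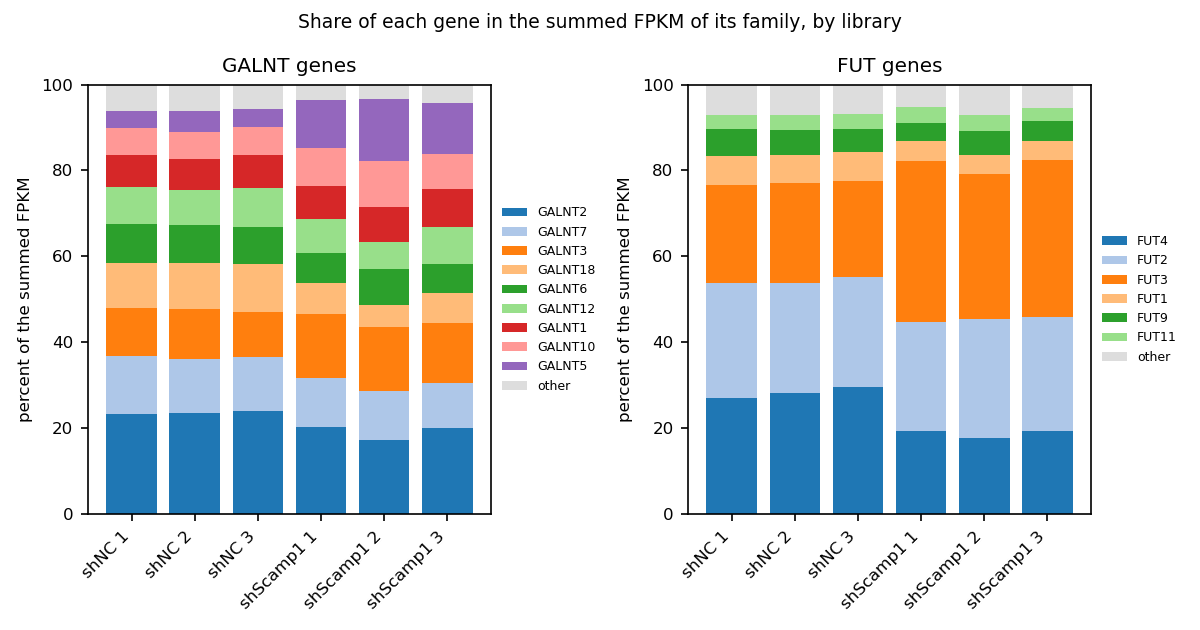
Share of each gene (percent of the summed FPKM of its family, vertical axis) in each of the 6 libraries, for the GALNT family (left, genes above 4% of the shScamp1 sum) and the FUT family (right, 6 most abundant), with all other members in light grey. GALNT5 widens from 4.33% to 12.5% on average and FUT3 from 22.9% to 36.0%, while FUT4 narrows from 28.3% to 18.8%.

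Neither gene of core 1 formation passed the test. C1GALT1, the core 1 synthase, was at 5.71, 5.66 and 5.19 FPKM in shNC and 6.29, 7.15 and 6.66 FPKM in shScamp1. The groups did not overlap, but the log2 fold change of 0.27 (SE 0.08) had a limma adjusted p of 0.0730. Its chaperone C1GALT1C1 was at 13.5, 12.6 and 12.5 FPKM in shNC and 15.4, 10.3 and 14.0 FPKM in shScamp1, overlapping groups with a log2 fold change of 0.02 (limma adjusted p = 0.932), whose sign changed with the scaling to TPM. GCNT1, the core 2 enzyme, stood at a mean of 0.703 FPKM in shNC and 0.598 FPKM in shScamp1 (limma adjusted p = 0.602).

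GCNT2 (ENSG00000111846, chr6:10492223-10629368), which makes the branched I antigen, was the 1 called gene of the 4 tested in this role (25.0%, against 8.82% of all genes higher). It was at 0.730, 0.867 and 0.521 FPKM in shNC and 1.46, 2.17 and 1.31 FPKM in shScamp1, so all libraries were low but the groups did not overlap. The ratio was 2.33 and the log2 fold change 1.11 (SE 0.26, limma adjusted p = 0.0390), with the call lost without any library but replicate 2 of shScamp1 (adjusted p = 0.0699 to 0.119) and without the filter (0.0833). Transcripts of the mucosal enzymes were scarce in both groups. GCNT3, a mucin-type core 2 and core 4 enzyme, had 41, 41 and 56 reads in shNC and 18, 37 and 30 reads in shScamp1, and B3GNT6, the core 3 synthase, had 0, 2 and 0 reads in shNC and 0 in all shScamp1 libraries. Neither was tested.

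For N-glycan branching, 1 of 6 tested MGAT genes was higher and 0 were lower (0 lower also at an unadjusted p under 0.05 and with voom). The 1 higher gene is 16.7% of the 6, against 8.82% of all genes. No share of all genes is given for the unadjusted p, here or in the roles below. MGAT3 (ENSG00000128268, chr22:39457344-39492194), which adds the bisecting GlcNAc, was at 6.93, 6.73 and 6.96 FPKM in shNC and 9.71, 10.1 and 9.72 FPKM in shScamp1. Both groups were tight, and the log2 fold change of 0.51 (SE 0.06, limma adjusted p = 0.00397) held without any library. MGAT5, which opens the beta-1,6 branch and was the most abundant of the role, was at 45.7, 46.0 and 47.4 FPKM in shNC and 48.0, 68.4 and 49.7 FPKM in shScamp1. Only replicate 2 of shScamp1 was far from the control libraries, and the log2 fold change of 0.24 (SE 0.14) became 0.08 without it (limma adjusted p = 0.302 and 0.180). MGAT4B, MGAT1, MGAT2 and MGAT4A were not called, with log2 fold changes from -0.52 (MGAT2) to 0.36 (MGAT4A). MGAT2 shares 91.9% of its exonic bases with the antisense gene AL139099.1 on the opposite strand, which stood at 0 FPKM.

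The enzymes that extend chains with galactose and GlcNAc had 6 of 17 tested members higher (35.3%, against 36.4% of the GALNT genes and 8.82% of all genes) and 0 lower (2 lower at an unadjusted p under 0.05, 0 lower with voom). Their summed FPKM went from 265 ± 3.63 to 411 ± 55.8 (SD, n = 3), a ratio of 1.55, and 1.43 without replicate 2 of shScamp1. B3GALT5 (ENSG00000183778, chr21:39556442-39673137), the beta-1,3-galactosyltransferase that makes the type 1 chain under Lewis a and sialyl Lewis a, had the largest log2 fold change of the 54 genes. It was at 1.18, 1.30 and 1.37 FPKM in shNC and 4.49, 6.72 and 4.84 FPKM in shScamp1. The mean went from 1.29 ± 0.0981 to 5.35 ± 1.2 FPKM (SD, n = 3), a ratio of 4.16 and a log2 fold change of 1.96 (SE 0.17, limma adjusted p = 0.00124). It lay between 1.78 and 2.07 in the fits without 1 library, all with the gene called.

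B4GALT1 (ENSG00000086062, chr9:33104082-33167356), the main galactosyltransferase of type 2 chains, was the most abundant gene of the set. It was at 81.1, 82.9 and 82.9 FPKM in shNC and 137, 216 and 140 FPKM in shScamp1, so that replicate 2 stood well above the other shScamp1 libraries, which in turn stood well above control. The log2 fold change was 0.96 (SE 0.18, limma adjusted p = 0.0188), and 0.75 without replicate 2 (adjusted p = 1.12e-04). The call was lost when any shNC library was left out (adjusted p = 0.0762 to 0.0798). B4GALT1 shares 72 exonic bases (1.47%) with the antisense transcript B4GALT1-AS1, which stood at 0.492 FPKM, and the sources do not state whether counting used strand.

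B3GNT3 (ENSG00000179913, chr19:17794828-17813082), which extends core 1 with GlcNAc, was at 64.5, 63.9 and 67.1 FPKM in shNC and 116, 133 and 112 FPKM in shScamp1. It rose 1.85-fold (log2 fold change 0.88, SE 0.08, limma adjusted p = 0.00187), with the call kept without any library. B3GNT2 (ENSG00000170340, chr2:62196113-62224731), the enzyme of poly-N-acetyllactosamine chains, was at 19.5, 17 and 17 FPKM in shNC and 24.5, 23.7 and 24.5 FPKM in shScamp1 (log2 fold change 0.44, SE 0.08, limma adjusted p = 0.0144). B3GALT4 (ENSG00000235863, chr6:33277132-33284832), which galactosylates gangliosides, was at 0.857, 1.15 and 1.24 FPKM in shNC and 1.69, 1.98 and 1.91 FPKM in shScamp1 (log2 fold change 0.74, SE 0.17, limma adjusted p = 0.0342). B4GALT4 (ENSG00000121578, chr3:119211732-119241103), another beta-1,4-galactosyltransferase, was at 2.65, 2.39 and 2.52 FPKM in shNC and 3.24, 3.17 and 3.36 FPKM in shScamp1 (log2 fold change 0.36, SE 0.08, limma adjusted p = 0.0356). In all 4 genes, which were named because they were called, the groups were apart, as for 41.4% of all tested genes. The B3GNT2 call was lost without replicate 2 or 3 of shNC (adjusted p = 0.0784 and 0.0740) or replicate 3 of shScamp1 (0.0639). The calls of B3GALT4 (0.0561 to 0.111) and B4GALT4 (0.0743 to 0.146) were lost without any library but replicate 2 of shScamp1. Both were also lost without the filter (0.0764 and 0.0783), and B4GALT4 with TPM (0.0518).

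The other extension genes did not pass. B4GALT5, the most abundant of them, was at 33.4, 32.7 and 32.9 FPKM in shNC and 31.4, 34.0 and 33.1 FPKM in shScamp1, and B4GALT2, B4GALT3 and B4GALT6 were likewise within overlapping groups. B3GALT6 and B4GALT7, which build the linkage region of proteoglycans, had log2 fold changes of -0.33 and -0.36 (limma adjusted p = 0.0914 and 0.127). Of the GlcNAc-transferases B3GNT5, B3GNT7, B3GNT8, B3GNT9 and B3GNT10, none was called, and only B3GNT9 had groups apart, at 2.70, 2.26 and 2.33 FPKM in shNC and 2.93, 3.86 and 3.05 FPKM in shScamp1 (log2 fold change 0.41, limma adjusted p = 0.0953). B3GNT9 shares 435 exonic bases (14.9%) with C16orf70 on the opposite strand, which stood at 4.08 FPKM. Of the genes that transfer GalNAc in beta-1,4 linkage, B4GALNT3 was at 9.63, 9.99 and 10.2 FPKM in shNC and 11.5, 12.4 and 10.6 FPKM in shScamp1 (log2 fold change 0.21, limma adjusted p = 0.13), and B4GALNT1 had a log2 fold change of -0.20 (adjusted p = 0.604).

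**Figure D3:**
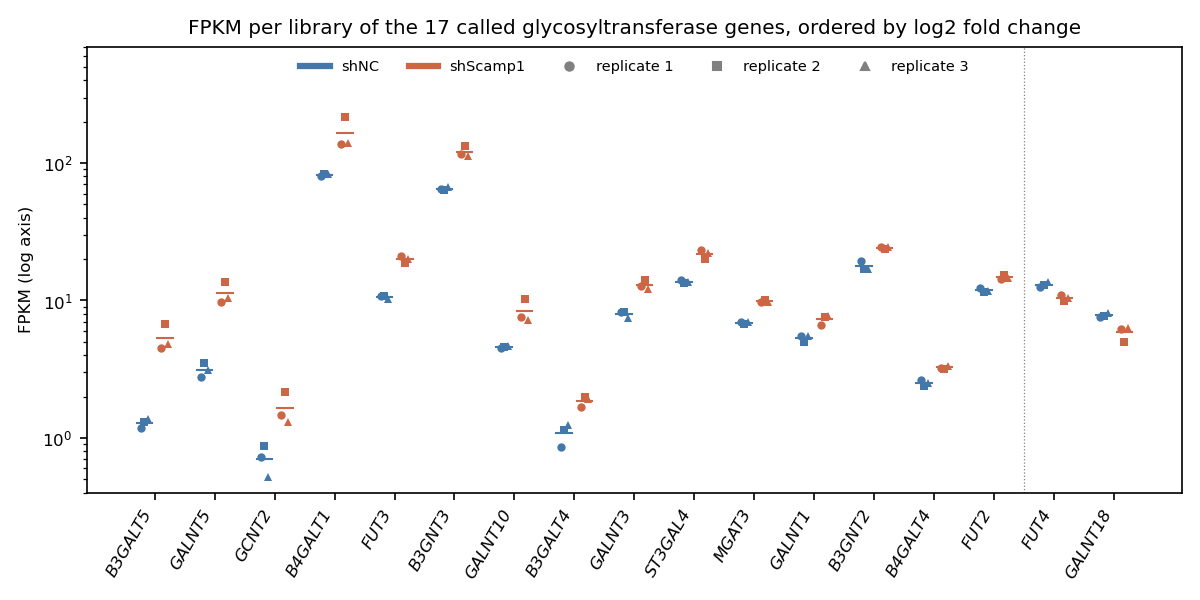
FPKM on a log axis (vertical) of the 17 called genes in each library, ordered from the highest to the lowest log2 fold change along the horizontal axis, with a symbol for each replicate and a line for the group mean. B3GALT5 and GALNT5 show the widest gap between shNC (blue) and shScamp1 (orange), and replicate 2 of shScamp1 (square) is the highest of its group for 10 of the 15 higher genes, B4GALT1 at 216 FPKM among them.

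Among fucosyltransferases, 2 of 8 tested genes were higher and 1 was lower. With 8 genes, these are 25.0% and 12.5%, against 8.82% and 5.17% of all genes. FUT3 (ENSG00000171124, chr19:5842888-5851474), the Lewis enzyme, was at 10.7, 10.8 and 10.3 FPKM in shNC and 21.1, 18.7 and 20.0 FPKM in shScamp1. Every shScamp1 library was well above control, with means of 10.6 ± 0.249 and 20.0 ± 1.2 FPKM (SD, n = 3), a ratio of 1.89 and a log2 fold change of 0.91 (SE 0.07, limma adjusted p = 9.43e-04), and the call held without any library. Its near-identical neighbours were scarce, FUT6 with 22 to 38 reads per library and FUT5 with 1 read in all, and reads that fit more than 1 of the 3 copies could not be traced. FUT3 also shares 126 exonic bases (4.05%) with the antisense gene AC024592.2, which stood at 0.766 FPKM.

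FUT2 (ENSG00000176920, chr19:48695971-48705950), the secretor enzyme that makes H antigen in mucosa, was at 12.4, 11.6 and 11.8 FPKM in shNC and 14.3, 15.4 and 14.5 FPKM in shScamp1 (log2 fold change 0.30, SE 0.07, limma adjusted p = 0.0311). FUT1, the H enzyme of red cells that lies 42061 bases from FUT2, was at 3.19, 2.93 and 3.09 FPKM in shNC and 2.60, 2.51 and 2.34 FPKM in shScamp1 (log2 fold change -0.30, limma adjusted p = 0.0696), and was called lower with protein-coding genes alone (adjusted p = 0.0482) and without replicate 2 of shScamp1 (0.0473). FUT4 (ENSG00000196371, chr11:94543840-94549898), a Lewis x enzyme, was at 12.6, 13.0 and 13.6 FPKM in shNC and 10.9, 9.90 and 10.5 FPKM in shScamp1, and fell by 0.32 on the log2 scale (SE 0.07, limma adjusted p = 0.0290). It shares 683 exonic bases (11.3%) with PIWIL4 on the same strand. The FUT2 call was lost without any library but replicate 2 of shScamp1 (adjusted p = 0.0535 to 0.143), and the FUT4 call without any of the shNC replicates (0.0936 to 0.124) or replicate 3 of shScamp1 (0.0957). Both were also lost without a variance trend (0.0562 and 0.0524). FUT4 was thus the most abundant fucosyltransferase in shNC, with 28.3% ± 1.27 of the summed FPKM, and FUT3 in shScamp1, with 36.0% ± 2.04 (22.9% ± 0.509 in shNC). FUT8, which adds core fucose to N-glycans, had a log2 fold change of -0.03 (limma adjusted p = 0.880), with a sign that changed without replicate 3 of shScamp1. FUT9, FUT10 and FUT11 were not called either, with log2 fold changes of -0.01, -0.16 and 0.24, and the sign of FUT9 turned in some fits without 1 library (-0.11 to 0.06).

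In the alpha-2,3 linkage 1 of 3 tested genes was higher. Over all genes 8.82% were higher, and with 3 tested genes 1 call makes 33.3%. ST3GAL4 (ENSG00000110080, chr11:126355640-126440344), an alpha-2,3-sialyltransferase of type 2 chains, was at 14.1, 13.3 and 13.6 FPKM in shNC and 23.5, 20.1 and 22.2 FPKM in shScamp1. It rose 1.61-fold (log2 fold change 0.68, SE 0.08, limma adjusted p = 0.00356), with the call kept without any library, and it made up 81.3% of the alpha-2,3 sum in shNC and 86.5% in shScamp1. ST3GAL1, which caps core 1, had a mean of 1.59 FPKM in shNC and 2.28 FPKM in shScamp1 (log2 fold change 0.48, limma adjusted p = 0.108). ST3GAL2, with a related specificity, went from 1.02, 1.17 and 1.12 to 0.710, 0.660 and 0.722 FPKM (log2 fold change -0.59, SE 0.16, limma adjusted p = 0.0640), and was called lower with voom (adjusted p = 0.00781), with protein-coding genes alone (0.0140) and without a variance trend (0.0130).

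In the alpha-2,6 linkage 0 of 3 tested genes were called (0 higher and 1 lower at an unadjusted p under 0.05, 0 with voom). ST6GALNAC4, which sialylates the GalNAc of core 1, was at 26.1, 25.4 and 26.7 FPKM in shNC and 22.4, 20.9 and 25.2 FPKM in shScamp1 (log2 fold change -0.20, limma adjusted p = 0.176). ST6GAL1, which caps N-glycan chains, was at 3.86, 3.74 and 4.04 FPKM in shNC and 2.87, 3.63 and 3.23 FPKM in shScamp1. The groups did not overlap and the log2 fold change was -0.26 (limma adjusted p = 0.157), or -0.34 without replicate 2 of shScamp1 (adjusted p = 0.0290). ST6GALNAC1, the sialyl-Tn synthase, was at 0.329, 0.540 and 0.432 FPKM in shNC and 0.655, 0.593 and 0.714 FPKM in shScamp1 (log2 fold change 0.51, SE 0.29, limma adjusted p = 0.276). The alpha-2,6 sum went from 31.2 ± 0.781 to 27.3 ± 2.22 FPKM, and the alpha-2,3 sum from 16.8 ± 0.220 to 25.3 ± 1.37 FPKM (SD, n = 3). In the alpha-2,8 linkage 0 of 6 genes reached the filter, and ST8SIA1, the GD3 synthase, had 8, 10 and 8 reads in shNC and 16, 30 and 16 in shScamp1.

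The 36 untested genes had means of at most 0.469 FPKM. Of these, 6 had 0 reads in all libraries, 24 had under 10 reads on average, and the most read of them had 83 reads in a library. In 12 of them 1 group or both were at 0 reads, so that no fold is given. ST3GAL6, an alpha-2,3-sialyltransferase of type 2 chains, had 25, 13 and 23 reads in shNC and 6, 7 and 6 in shScamp1, without a test.

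Genes that serve these enzymes were examined in 5 lists chosen by function. Of the donor sugar genes, 20 of 22 written symbols were found, and 1 of 19 tested was higher and 2 were lower, with a median log2 fold change of 0.00. GNE (chr9:36214441-36277056), the rate-limiting enzyme of sialic acid synthesis, was at 18.5, 16.8 and 17.2 FPKM in shNC and 46.8, 57.1 and 48.9 FPKM in shScamp1. The mean went from 17.5 ± 0.886 to 50.9 ± 5.44 FPKM (SD, n = 3), a ratio of 2.91 and a log2 fold change of 1.53 (SE 0.09, limma adjusted p = 5.45e-04), with the call kept without any library. The next steps of that pathway did not pass, with NANS at an adjusted p of 0.985 and CMAS, which activates sialic acid, at means of 31.1 and 33.2 FPKM (limma adjusted p = 0.670), although CMAS was higher without replicate 2 of shScamp1 (log2 fold change 0.21, adjusted p = 0.0337). GMDS, which starts GDP-fucose synthesis, was at 6.17, 6.25 and 6.39 FPKM in shNC and 4.12, 3.12 and 4.05 FPKM in shScamp1, and fell by 0.73 on the log2 scale (SE 0.12, limma adjusted p = 0.0118), with the call lost without any of the shNC replicates (0.0565 to 0.0604). The other enzyme of that route, TSTA3, did not pass (40.3 and 39.3 FPKM, limma adjusted p = 0.834). UAP1L1, a relative of the UDP-GlcNAc enzyme UAP1, fell by 0.52 (limma adjusted p = 0.0442), a call lost without any of the shNC replicates or replicate 3 of shScamp1 (0.127 to 0.148).

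Of 15 tested transporters and ion genes of the Golgi, 2 were higher and 0 lower (0 lower at an unadjusted p under 0.05 and with voom). SLC35A3, the UDP-GlcNAc transporter, went from 1.57, 1.5 and 1.51 to 1.90, 2.31 and 2.22 FPKM (log2 fold change 0.46, limma adjusted p = 0.0450), and its relative SLC35A5 from 2.82, 3.13 and 2.60 to 3.92, 3.61 and 4.13 FPKM (0.44, limma adjusted p = 0.0368). The SLC35A3 call was lost without any of the shNC replicates or replicate 3 of shScamp1 (adjusted p = 0.132 to 0.154), and the SLC35A5 call without any library but replicate 2 of shScamp1 (0.0691 to 0.131). The CMP-sialic acid transporter SLC35A1 did not pass (limma adjusted p = 0.519). Of 12 tested genes for removing or modifying terminal sugars, with their partner CTSA, 3 were higher and 0 lower (1 lower at an unadjusted p under 0.05, 0 with voom). The lysosomal fucosidase FUCA1 went from 6.04, 6.19 and 6.17 to 10.5, 10.2 and 9.52 FPKM (log2 fold change 0.71, SE 0.07, limma adjusted p = 0.00185), with the call kept without any library. The lysosomal sialidase NEU1 (log2 fold change 0.51, limma adjusted p = 0.0322) and the secreted fucosidase FUCA2 (0.31, limma adjusted p = 0.0271) were also higher, with calls lost without any library but replicate 2 of shScamp1 (adjusted p = 0.0760 to 0.119 and 0.0636 to 0.133).

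**Figure D4:**
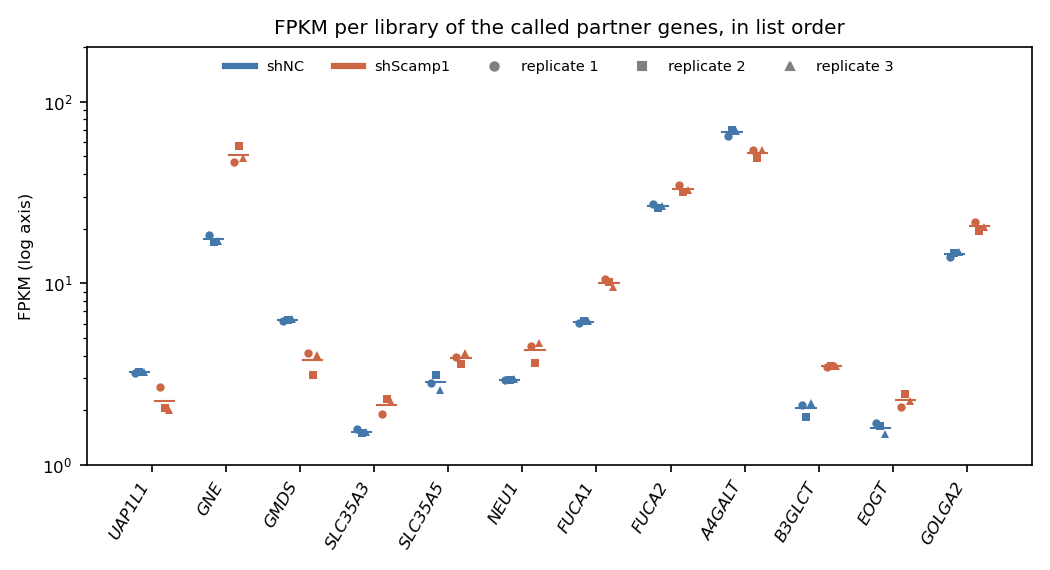
FPKM on a log axis (vertical) of the 12 called genes of the 5 lists in each library, in list order along the horizontal axis, with a symbol for each replicate and a line for the group mean, shNC in blue and shScamp1 in orange. GNE shows the widest gap, from 17.5 to 50.9 FPKM on average, and UAP1L1, GMDS and A4GALT are lower in shScamp1.

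Of 17 tested transferases outside the name rule, 2 were higher and 1 was lower, with a median log2 fold change of -0.06. B3GLCT, which adds glucose to O-fucose, went from 2.13, 1.83 and 2.20 to 3.45, 3.52 and 3.52 FPKM (log2 fold change 0.75, SE 0.10, limma adjusted p = 0.00568), with the call kept without any library. EOGT, which adds O-GlcNAc to EGF repeats, rose by a log2 fold change of 0.48 (limma adjusted p = 0.0385), a call lost without any library but replicate 2 of shScamp1 (0.0515 to 0.137). A4GALT, the Gb3 glycolipid synthase, was at 65.0, 69.8 and 68.6 FPKM in shNC and 53.9, 49.2 and 54 FPKM in shScamp1, and fell by 0.37 (SE 0.07, limma adjusted p = 0.0190), a call lost without any of the shNC replicates (0.0692 to 0.104) or replicate 3 of shScamp1 (0.0639). Of 20 Golgi structure and traffic genes, 1 was higher and 0 were lower (6 higher and 0 lower at an unadjusted p under 0.05, 2 and 0 with voom), and the list's median log2 fold change was 0.07. With voom 10.4% of all genes were higher and 7.33% lower, and no share of all genes is given for the unadjusted p. The higher gene was the cis-Golgi protein GOLGA2 (GM130), which went from 14.0, 14.6 and 14.8 to 21.7, 19.5 and 20.5 FPKM (log2 fold change 0.50, SE 0.07, limma adjusted p = 0.00666). Against the 8.82% of all genes that were higher, these 5 lists held 5.26%, 13.3%, 25.0%, 11.8% and 5.00%, in the order given here, over 12 to 20 tested genes. Lower genes made up 10.5%, 0%, 0%, 5.88% and 0% of the lists, against 5.17% of all genes. These counts depend on the libraries. Without replicate 2 of shScamp1, when 14.9% of all genes were higher and 13.4% lower, the lists in that order had 5, 3, 5, 2 and 4 higher and 4, 0, 1, 3 and 1 lower genes. The lower ones that this fit added were UAP1, FUK, NEU3, UGCG, UGT8 and GOLIM4. Without any of the shNC replicates the lists had 1, 0, 1, 1 and 1 higher and 0 lower genes. Some list genes also lost their call under other settings, SLC35A3, SLC35A5, UAP1L1, NEU1 and EOGT without the filter (adjusted p = 0.0674 to 0.102), SLC35A3 and SLC35A5 with TPM (0.0556 and 0.0594), SLC35A3 with a pseudocount of 1 (0.0512), and UAP1L1 and FUCA2 without a variance trend (0.0580 and 0.0529). The called genes named by rule were 17 members and 12 genes of these lists. With the replicate block, 14 of them lost their call, of which 7 were members and the others genes of these lists.

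The design has 3 libraries per group, and 7 of the 17 called genes were called in all 6 fits without 1 library, namely B3GALT5, GALNT5, FUT3, B3GNT3, GALNT3, ST3GAL4 and MGAT3. The epithelial marker sum, carried by the keratins, moved with the groups, and its part in these results was not tested.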

How the data were processed

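RNA of 6 NCI-N87 libraries, 3 shNC and 3 shScamp1, was sequenced by a commercial provider, and the submitters' processing notes list HISAT2 2.0.5, featureCounts 1.5.0-p3, DESeq2 1.20.0 and hg38. The values the authors deposited are FPKM, 1 per gene and library, and 0 columns with values per sample were left unused. All 58735 genes have the start and end of GENCODE 29 on GRCh38. FPKM times gene length was a whole multiple of 1 step for 100% of values (relative tolerance 0.001), which gave reads per gene. The total behind the FPKM was 0.957 to 1.04 times the reads on genes, so the deposited values carry a scaling between libraries.

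In R 4.3.3 with limma 3.58.1, log2(FPKM + 0.1) was fitted with lmFit and eBayes with a trend, where the mean over libraries reached 0.5 FPKM, with Benjamini-Hochberg adjustment over 15556 genes. Higher and lower mean an adjusted p under 0.05. Fold changes are on that log scale and understate changes of low genes, and ratios are of mean FPKM. Reads recovered from FPKM served for voom, an alternative. The fit was tested on simulated data. The members and lists were chosen with earlier results of these data known. Named genes are all called members, the most abundant member of each role, 11 members set by name, SCAMP1 and up to 4 called genes per list. Other genes were chosen after their values were seen. Alternatives covered the pseudocount, filter, scaling, trend, biotype, voom, replicate block and leaving out each library.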

Additional observations from a re-analysis of the deposited data

How the results depend on the processing

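The fall of SCAMP1 passed under every alternative tried (log2 fold change -2.90 to -2.65 without 1 library). The count of higher glycosyltransferase genes, 15, was 10 to 15 under the other alternatives and 7 to 15 without 1 library: 8, 7 and 7 without shNC replicates 1, 2 and 3, 11 and 9 without shScamp1 replicates 1 and 3, and 15 without shScamp1 replicate 2. Over all genes the higher share was 4.19% to 14.9% without 1 library. Under the other alternatives it ran from 3.28% without a filter to 13.6% with protein-coding genes alone. The count of lower genes, 2, rests on the settings: it was 1 without a filter, 1 with TPM, 1 without a trend (ST3GAL2, with neither of the 2 kept), 4 with voom, 5 with protein-coding genes alone and 0 to 4 without 1 library. Over all genes the lower share was 5.17% in the main fit. Under these settings, in the same order, it was 1.53%, 5.66%, 4.19%, 7.33% and 9.16%, and 1.07% to 13.4% without 1 library. The count past a log2 fold change of 1 was 2 or 3 throughout, while over all genes it was 492, and 248 with a pseudocount of 1. The genes were not always the same. Without shScamp1 replicate 1 or 3 the count was 3, but only 2 were shared with the main fit. There B4GALT1 passed 1 (1.08 and 1.06) and the GCNT2 call was lost. Replicate numbers gave correlations of -0.035, 0.032 and 0.067 between same-numbered libraries, and not every library correlated best with its own number. Values this small show no shared deviation by number, and they cannot decide whether the libraries were prepared in pairs. With the replicate block 10 genes were higher and 0 lower (B3GALT4, B3GNT2, B4GALT4, FUT2, GALNT1, FUT4 and GALNT18 lost, adjusted p = 0.0561 to 0.114), and over all genes 704 higher and 254 lower, against 1372 and 805 without it. Among the genes named by rule, the sign turned for C1GALT1C1 with TPM (-0.0036) and without shScamp1 replicate 1 (-0.09) or 3 (-0.03; 0.19 without replicate 2), for FUT8 without shScamp1 replicate 3 (0.03), and for GALNT2 with TPM (-0.01) and without shScamp1 replicate 3 (-0.01; 0.05 without replicate 2). It turned without 1 library also for MGAT4B, GALNT6, FUT9, B3GNT7, B3GNT10, B4GALT3 and B4GALT5, none of them called. The cause of these changes was not tested. Tested members had from 11 to 14501 reads in a library, and depth leaves few reads for most of the 36 genes under the filter, of which 24 had under 10 on average.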
